A study of Mus musculus with 9 samples.

Results

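Potassium channels of the voltage-gated, inward rectifier and two-pore families were followed in mouse Neuro2A neuroblastoma cells that carried CCAT, the C-terminal fragment of the calcium channel CaV1.2 that acts as a transcription factor. A list of 36 channel genes was matched by annotated gene symbol to the array features, and every match was kept whatever its value. On the arrays against untransfected cells 33 of the 36 genes were measured, by 36 features, among 16504 named genes. Kcnc1, Kcnh3 and Kcnq3 had no feature there. On the arrays against empty vector all 36 were measured, by 54 features, among 19087 named genes.

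The study asked which genes CCAT regulates and used 9 two-colour arrays, 3 in each of 3 groups. In the first group, Neuro2A cells received the last 503 amino acids of CaV1.2, the full-length form (CCAT FL), in the PA1 plasmid, and were compared with untransfected cells. In the second, cells received the last 280 amino acids in PA1, a form said to lack the transcriptional activation domain (CCAT DTA, also written DTS in the labels), again against untransfected cells; per the labels DTA keeps a much weaker ability to activate transcription. In the third, CCAT FL in PA1 was compared with PA1 alone, on another array design, because the submitters had found that PA1 by itself raised some genes. Transfected cells were sorted for GFP 24 hours after transfection with Lipofectamine 2000. The untransfected cells also passed through the sorter but carried neither plasmid nor GFP. Neuro2A is 1 cell line, expression was transient, and the labels do not say whether replicates were separate cultures, so the p-values measure the spread between these arrays, which may be technical.

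A voltage-gated potassium channel is built from 4 pore subunits that open on depolarisation and repolarise the membrane. Inward rectifiers pass potassium most readily near the resting potential, and some of them are opened by G proteins or by a fall in ATP. Two-pore channels carry the background leak that sets the resting potential. In neurons the relative amounts of these subunits shape spike width, firing frequency and excitability.

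Every array carried CCAT RNA in Cy3 and control RNA in Cy5, so the dyes were not swapped and a gene-specific dye effect cannot be told apart from the ratio of any single group. The order of the deposited ratio is not stated. It is taken here as CCAT over control. Against untransfected cells this is likely because 18 of 19 measured interferon-stimulated genes were positive (median log2 ratio 1.80 for FL). Against empty vector both channels came from cells with PA1 and the median of these genes was 0.17. That value does not settle the order there, which is assumed to be the same. All values below are log2 ratios, so -1 would be a halving. Ratios hold no expression level, so neither the Neuro2A identity of the cells nor the abundance of any channel could be checked. In RNA of a sorted population, fewer cells that express a gene and less RNA of it per cell cannot be told apart. The label of DTA replicate 3 names the full-length construct in its treatment text, yet over all genes its correlation was 0.92 to 0.95 with DTA replicates 1 and 2, and 0.73 to 0.79 with the FL group. The control text of empty-vector replicate 1 names the green channel although its dye field gives Cy5, and that group's arrays correlated with each other at 0.81 to 0.83.

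In cells with full-length CCAT most channel genes that changed were lower than in untransfected cells. Of the 33 measured, 15 fell, 3 rose and 15 did not pass limma's test at an adjusted p of 0.05. Over all genes the same test called 69.8%, with 34.7% higher and 35.1% lower, so 54.5% of the channel genes called is a smaller share than the background. The median log2 ratio of the channel genes was -0.09, against -0.0019 over all genes, and their median size regardless of sign was 0.13, against 0.20 over all genes. The falls that reached 1.5-fold were those of Kcnv1 and Kcnk4, 2 of 33 genes against a background of 3.28%. No channel gene rose by that much. All 3 arrays lay on 1 side of 0 for 20 of the 33, against 77.3% of all genes.

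Kcnv1, a silent subunit that forms no channel alone and alters Kcnb family channels, had log2 ratios of -2.25, -1.67 and -0.97 on FL replicates 1, 2 and 3. It lay below 0 on every array, but the arrays differed by more than 1 log2 unit. The mean was -1.63 ± 0.64 (SD, n = 3), 3.10-fold lower, with a limma adjusted p of 0.00111, and it ranked 6 from the lowest of all 16504 genes. Kcnk4, the mechanosensitive two-pore leak channel TRAAK, stood at -0.66, -0.74 and -0.54, a mean of -0.65 ± 0.10 (SD, n = 3; limma adjusted p = 5.05e-05). Its arrays lay close together. It was the only two-pore member of the 6 measured to be called in this comparison, a share of 16.7% beside 69.8% of all genes.

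Both Kcnd1 and Kcnd2, pore subunits of the fast-inactivating A-type current, fell. Kcnd2 had log2 ratios of -0.65, -0.50 and -0.35, with a mean of -0.50 ± 0.15 (SD, n = 3; limma adjusted p = 0.000517). Kcnd1 had log2 ratios of -0.67, -0.46 and -0.35, with a mean of -0.50 ± 0.16 (SD, n = 3; limma adjusted p = 0.00161). In both genes every array was below 0. The third Kcnd member, Kcnd3, had a mean log2 ratio of -0.09 and was not called (limma adjusted p = 0.0562).

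Among the other voltage-gated genes, Kcnh2, the mouse ERG channel of cardiac and neuronal repolarisation, had log2 ratios of -0.37, -0.39 and -0.33 (mean -0.36 ± 0.03, SD, n = 3; limma adjusted p = 3.46e-05). Kcnb2, a slow delayed rectifier, stood at -0.33, -0.37 and -0.23 (mean -0.31 ± 0.07, SD, n = 3; limma adjusted p = 0.00205). Kcna3, a Shaker-type delayed rectifier best known from lymphocytes, stood at -0.15, -0.32 and -0.33 (mean -0.26 ± 0.10, SD, n = 3; limma adjusted p = 0.00171). These 3 genes were below 0 on each array. Kcnc2, a channel of fast-spiking neurons, had log2 ratios of -0.17, -0.17 and -0.73. Replicate 3 set its mean of -0.36 ± 0.33 (SD, n = 3; limma adjusted p = 0.0412): without that array the mean was -0.17, and the adjusted p lay between 0.0484 and 0.0947 when any 1 of the 6 arrays was left out, missing the threshold without FL replicate 3 or any of the 3 DTA arrays. Kcna4 fell with a mean of -0.12 and Kcnq1, the channel that pairs with Kcne1 in heart, with a mean of -0.22. Kcna5 rose with a mean of 0.26 and Kcnc4, which gives a fast inactivating current, with a mean of 0.21.

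Of the 10 inward rectifiers 5 fell and 1 rose, a called share of 60% beside 69.8% of all genes. Kcnj8, the pore of the vascular type of ATP-sensitive channel, had log2 ratios of -0.39, -0.42 and -0.40, the closest agreement between arrays among the named genes together with Kcnh2 (mean -0.40 ± 0.01, SD, n = 3; limma adjusted p = 3.1e-05). Kcnj3, a G-protein-gated subunit, had log2 ratios of -0.29, -0.23 and -0.52 (mean -0.35 ± 0.15, SD, n = 3; limma adjusted p = 0.00273). All 6 of these ratios were below 0. The pancreatic and neuronal ATP-sensitive pore Kcnj11 fell with a mean of -0.23, the renal Kcnj1 with a mean of -0.13 and the G-protein-gated Kcnj9 with a mean of -0.08, while the strong rectifier Kcnj4 rose with a mean of 0.15. The 15 genes not called, Kcna1, Kcna2, Kcna6, Kcnd3, Kcnh1, Kcnj2, Kcnj5, Kcnj6, Kcnj10, Kcnk1, Kcnk2, Kcnk3, Kcnk5, Kcnk6 and Kcnq5, had means between -0.10 and 0.17. Without FL replicate 3 the number that rose was 5 and not 3.

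**Figure D1:**
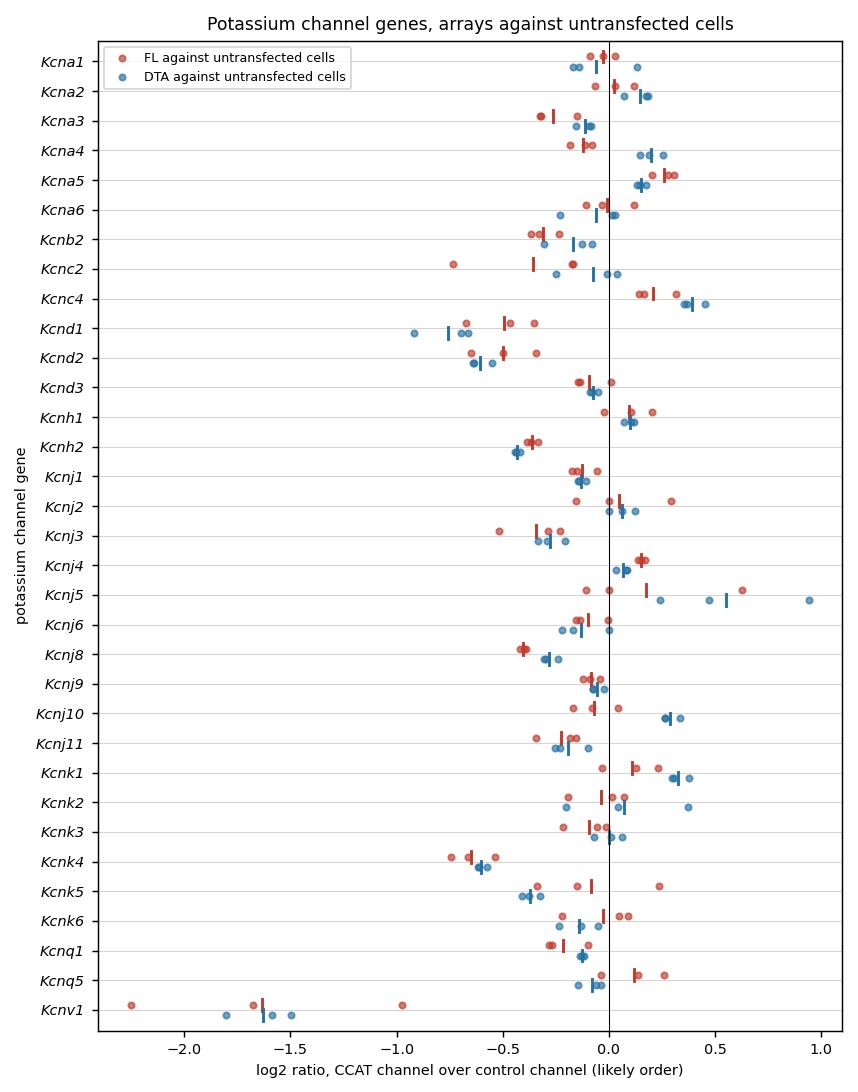
Each point is the log2 ratio of 1 array for 1 potassium channel gene, red for CCAT FL and blue for CCAT DTA against untransfected cells, and each vertical tick is the mean of 3 arrays. Kcnv1 lies far to the left in both groups, with FL arrays from -2.25 to -0.97, and Kcnd1, Kcnd2, Kcnk4 and Kcnh2 are left of 0 on all 6 arrays.

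In cells with truncated CCAT, Kcnv1, Kcnd1 and Kcnd2 were also low, and 8 channel genes rose. Of 33 genes 13 fell, 8 rose and 12 were not called, a called share of 63.6%, against 71.8% over all genes (35.7% higher and 36.1% lower). The median log2 ratio was -0.07 (all genes -0.0061). At least 1.5-fold lower were Kcnv1, Kcnd1, Kcnd2 and Kcnk4, 4 of 33 against a background of 3.87%, and no channel gene rose that far. The 3 DTA arrays lay on 1 side of 0 for 28 of 33, against 87.1% of all genes. Without DTA replicate 2 the number that fell was 8 and not 13. Both groups were measured against untransfected cells on 1 platform and may share control RNA, so a match between them is no independent evidence.

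Kcnv1 had log2 ratios of -1.80, -1.59 and -1.50 on DTA replicates 1, 2 and 3 (mean -1.63 ± 0.16, SD, n = 3; limma adjusted p = 0.00104). Kcnd1 stood at -0.92, -0.70 and -0.66 (mean -0.76 ± 0.14, SD, n = 3; limma adjusted p = 0.000246). Kcnd2 stood at -0.64, -0.64 and -0.55 (mean -0.61 ± 0.05, SD, n = 3; limma adjusted p = 0.000203). These voltage-gated genes were low on all 3 arrays. Kcnk4 had log2 ratios of -0.61, -0.62 and -0.58 (mean -0.60 ± 0.02, SD, n = 3; limma adjusted p = 5.43e-05), and Kcnh2 had log2 ratios of -0.44, -0.42 and -0.44 (mean -0.43 ± 0.01, SD, n = 3; limma adjusted p = 1.51e-05). Their arrays almost coincided. Kcnk5, an acid-sensitive leak channel, had log2 ratios of -0.32, -0.41 and -0.38 (mean -0.37 ± 0.04, SD, n = 3; limma adjusted p = 0.0183). The DTA arrays of Kcnk5 agreed, but the FL arrays that share its estimate of spread ran from -0.34 to 0.24, and its adjusted p was between 0.00108 and 0.0784 when 1 array was left out, missing the threshold without any of the 3 DTA arrays.

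The largest rise was that of Kcnj5, a G-protein-gated subunit known from atrium and adrenal cortex, with log2 ratios of 0.94, 0.47 and 0.24 (mean 0.55 ± 0.36, SD, n = 3; limma adjusted p = 0.0353). It depended on single arrays: its mean was 0.36 without DTA replicate 1, and its adjusted p ran from 0.0174 to 0.166 when 1 array was left out, missing the threshold without DTA replicate 1, DTA replicate 2 or FL replicate 3. Kcnc4 had log2 ratios of 0.36, 0.37 and 0.45 (mean 0.39 ± 0.05, SD, n = 3; limma adjusted p = 0.000314). Kcnk1, a two-pore leak channel, stood at 0.38, 0.30 and 0.31 (mean 0.33 ± 0.04, SD, n = 3; limma adjusted p = 0.00179). Kcnj10, the inward rectifier that glia use for potassium uptake, stood at 0.33, 0.26 and 0.26 (mean 0.29 ± 0.04, SD, n = 3; limma adjusted p = 0.00135). For these 3 genes every DTA array was above 0. Of the Shaker-type genes Kcna2, Kcna4 and Kcna5 rose with means of 0.14, 0.20 and 0.15, and Kcna3 fell with a mean of -0.11. Kcnj4 also rose (0.07), and Kcnb2 (-0.17), Kcnj1 (-0.13), Kcnj3 (-0.28), Kcnj8 (-0.28), Kcnj11 (-0.19) and Kcnq1 (-0.12) fell. The 12 genes not called, Kcna1, Kcna6, Kcnc2, Kcnd3, Kcnh1, Kcnj2, Kcnj6, Kcnj9, Kcnk2, Kcnk3, Kcnk6 and Kcnq5, had means from -0.14 to 0.10.

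The difference between the forms, FL minus DTA, was called for few channel genes. The 3 of 33 that passed limma's test were all lower with FL, a share of 9.09%, against 34.2% over all genes (18.2% higher and 16.1% lower). The median difference was -0.03, and over all genes it was 0.0026. Kcnj10 lay at -0.17, -0.08 and 0.04 with FL and at 0.33, 0.26 and 0.26 with DTA, a difference of -0.36 (95% interval -0.50 to -0.21; limma adjusted p = 0.00741). Kcna4, a Shaker-type gene with fast inactivation, lay at -0.08, -0.11 and -0.18 with FL and at 0.25, 0.14 and 0.19 with DTA, a difference of -0.32 (95% interval -0.43 to -0.21; limma adjusted p = 0.00388). For Kcna4 every FL array was below 0 and every DTA array above it, and for Kcnj10 the groups did not overlap. Kcnj8 was low in both groups and lower with FL, at -0.39, -0.42 and -0.40 against -0.24, -0.30 and -0.30, a difference of -0.12 (95% interval -0.20 to -0.05; limma adjusted p = 0.0273). Its adjusted p lay between 0.0415 and 0.0812 with 1 array left out and missed the threshold without FL replicate 2 or any of the 3 DTA arrays. Groups did not overlap for 9 of 33 channel genes, against 50.0% of all genes. In the same difference 8 of 19 interferon-stimulated genes were higher with FL and 0 lower (median 0.46). Of 12 fibroblast markers 1 was higher and 5 lower, and of 20 neuronal markers 6 were higher and 3 lower. Of 10 glial markers 1 was lower, and of 9 immune markers 1 was higher. The share called was 42.1% for interferon-stimulated genes. It was 50%, 45%, 10% and 11.1% for fibroblast, neuronal, glial and immune markers, beside 34.2% of all genes. The part of these lists in the channel differences was not tested.

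Kcnv1, Kcnk4, Kcnd1, Kcnd2 and Kcnh2, which fell in both groups, gave no called difference between the forms. For Kcnv1 the difference was -0.0030, but its 95% interval ran from -0.78 to 0.78. For Kcnk4 the interval ran from -0.19 to 0.09, for Kcnd1 from 0.0049 to 0.52 (limma adjusted p = 0.106), for Kcnd2 from -0.09 to 0.31 and for Kcnh2 from 0.0017 to 0.14. The intervals of the 30 genes not called therefore still admit differences of varied size. Without FL replicate 1, 3 channel genes were called higher and 5 lower with FL, and without FL replicate 3 the number called lower was also 5.

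**Figure D2:**
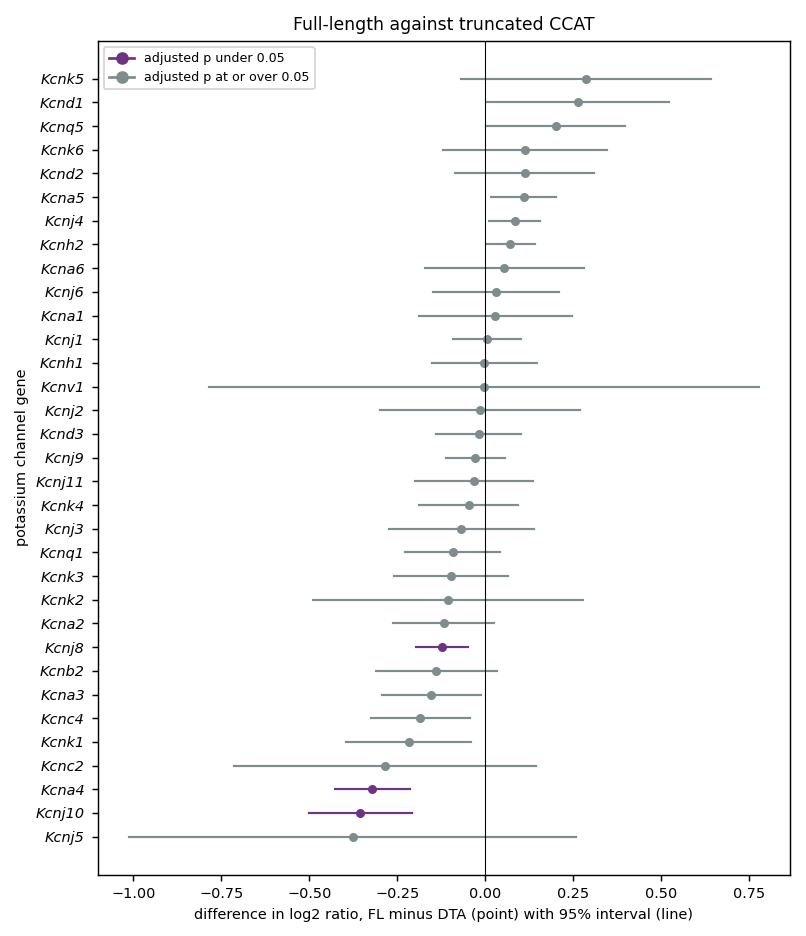
Points are differences in log2 ratio, FL minus DTA, for the 33 channel genes, ordered by size, and lines are 95% intervals from the 6-array limma fit. Purple marks Kcnj10, Kcna4 and Kcnj8, the 3 genes with an adjusted p under 0.05, and the interval of Kcnv1 spans -0.78 to 0.78.

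Promoter windows, 250 bases before to 50 bases after the annotated start, are printed for the called genes with a RefSeq window that either fell in both groups against untransfected cells by a mean beyond -0.35 (Kcnk4, Kcnd2, Kcnh2) or had the largest differences between FL and DTA (Kcnj10, Kcna4). They come from RefSeq on build GRCm38.p6 and read 5′ to 3′ on the gene's strand. Capitals mark matches, on either strand, to the GC box GGGCGG or the E-box CANNTG. The cAMP response element TGACGTCA was searched too. The Kcnk4 window is chr19:6934466-6934765 on the minus strand, Kcnd2 chr6:21215096-21215395 on the plus strand, Kcnh2 chr5:24329542-24329841 on the minus strand, Kcnj10 chr1:172340960-172341259 on the plus strand and Kcna4 chr2:107290339-107290638 on the plus strand.
Kcnk4: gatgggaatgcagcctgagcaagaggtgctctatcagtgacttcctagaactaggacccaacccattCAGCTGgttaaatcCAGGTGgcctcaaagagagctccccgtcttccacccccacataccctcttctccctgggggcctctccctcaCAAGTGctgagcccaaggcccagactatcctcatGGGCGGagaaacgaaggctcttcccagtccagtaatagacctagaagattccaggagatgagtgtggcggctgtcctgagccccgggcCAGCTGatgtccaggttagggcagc
Kcnd2: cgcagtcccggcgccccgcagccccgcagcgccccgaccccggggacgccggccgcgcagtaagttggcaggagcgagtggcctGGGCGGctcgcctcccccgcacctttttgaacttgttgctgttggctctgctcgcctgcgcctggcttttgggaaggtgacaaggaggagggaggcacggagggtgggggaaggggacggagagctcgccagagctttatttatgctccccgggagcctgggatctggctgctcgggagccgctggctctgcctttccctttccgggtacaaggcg
Kcnh2: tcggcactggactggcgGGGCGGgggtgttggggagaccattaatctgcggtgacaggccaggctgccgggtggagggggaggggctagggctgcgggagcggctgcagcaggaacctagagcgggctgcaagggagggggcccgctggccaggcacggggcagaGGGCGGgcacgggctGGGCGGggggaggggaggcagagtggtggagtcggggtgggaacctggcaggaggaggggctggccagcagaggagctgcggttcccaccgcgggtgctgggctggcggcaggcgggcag
Kcnj10: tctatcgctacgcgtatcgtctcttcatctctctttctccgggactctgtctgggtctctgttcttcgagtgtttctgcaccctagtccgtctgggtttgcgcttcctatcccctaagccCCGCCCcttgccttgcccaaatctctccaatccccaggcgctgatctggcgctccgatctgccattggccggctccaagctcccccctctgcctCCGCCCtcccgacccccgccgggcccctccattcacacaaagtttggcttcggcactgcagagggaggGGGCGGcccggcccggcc
Kcna4: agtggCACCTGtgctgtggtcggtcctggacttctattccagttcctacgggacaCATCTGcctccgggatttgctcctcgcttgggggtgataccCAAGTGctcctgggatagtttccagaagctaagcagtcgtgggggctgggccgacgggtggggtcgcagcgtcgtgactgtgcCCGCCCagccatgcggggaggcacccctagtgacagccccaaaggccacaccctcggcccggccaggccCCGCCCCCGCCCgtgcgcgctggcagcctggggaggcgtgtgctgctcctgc
Kcnk4 held 1 GC box and 4 E-boxes, Kcnd2 held 1 GC box, Kcnh2 and Kcnj10 held 3 GC boxes each, and Kcna4 held 3 of each motif. No matches overlapped a match to another motif. Windows were found for 26 of the 36 channel genes, 34 windows in all. A GC box was in 52.9% of them and in 35.7% of all 32851 windows, and the median GC content was 62.3% against 52.7%. An E-box was in 67.6% against 72.3%, and TGACGTCA in 0 of 34 against 1.79% of all windows. These matches describe the letters only.

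Against empty vector, which carries the plasmid but not CCAT, Kcnk4 fell most, and the other called changes were under 1.5-fold. Of 36 channel genes 11 fell, 6 rose and 19 were not called, a called share of 47.2%, against 63.4% over all genes (30.6% higher and 32.8% lower). The median log2 ratio was -0.05 (all genes -0.0048) and the median size 0.09 (all genes 0.14), and 25 of 36 had all arrays on 1 side of 0, against 80.1% of all genes. Kcnk4 had log2 ratios of -0.66, -0.64 and -0.57 (mean -0.63 ± 0.05, SD, n = 3; limma adjusted p = 0.00208). It was the 1 channel gene at least 1.5-fold lower, against a background of 1.67%, and its 3 arrays lay close together. Kcnd1 had log2 ratios of -0.50, -0.20 and -0.53 (mean -0.41 ± 0.18, SD, n = 3; limma adjusted p = 0.0195), with replicate 2 nearest to 0. Its adjusted p was 0.0244 to 0.0894 with 1 array left out and missed the threshold without replicate 1 or replicate 3.

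Kcnb2 had log2 ratios of -0.24, -0.38 and -0.43 (mean -0.35 ± 0.10, SD, n = 3; limma adjusted p = 0.0073), and Kcnq1 had log2 ratios of -0.25, -0.32 and -0.26 (mean -0.28 ± 0.04, SD, n = 3; limma adjusted p = 0.00285). Kcnc1, a fast-spiking channel measured here alone, stood at -0.34, -0.25 and -0.38 (mean -0.33 ± 0.07, SD, n = 3; limma adjusted p = 0.0042). All these ratios were below 0. Kcnd3 stood at -0.21, -0.15 and -0.13 (mean -0.16 ± 0.04, SD, n = 3; limma adjusted p = 0.00797), and Kcnd2 fell with a mean of -0.13, so the 3 Kcnd genes were all called lower, as were 32.8% of all genes. The Kcnd2 mean joins features of -0.43 and 0.16, which were called in opposite directions. Smaller falls were called for Kcnj1 (-0.08), Kcnj4 (-0.08), Kcnj10 (-0.14) and Kcnk3, an acid-sensitive leak channel (-0.06).

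Kcnk2, the mechanosensitive and lipid-sensitive leak channel TREK, rose. Its log2 ratios were 0.48, 0.42 and 0.25 (mean 0.38 ± 0.12, SD, n = 3; limma adjusted p = 0.00892). Kcnq3, a subunit of the muscarinic-regulated M current, had log2 ratios of 0.38, 0.41 and 0.27 (mean 0.35 ± 0.07, SD, n = 3; limma adjusted p = 0.0043). Kcna6, a Shaker-type gene, stood at 0.21, 0.10 and 0.24 (mean 0.18 ± 0.07, SD, n = 3; limma adjusted p = 0.019), and Kcnj9 at 0.27, 0.17 and 0.09 (mean 0.17 ± 0.09, SD, n = 3; limma adjusted p = 0.0327). Every array of these 4 genes was above 0. With 1 array left out the adjusted p was 0.0166 to 0.0518 for Kcnk2, which missed the threshold without replicate 2. It was 0.0263 to 0.0895 for Kcna6, which missed it without replicate 1 or replicate 3, and 0.036 to 0.115 for Kcnj9, which missed it without replicate 1 or replicate 2. Kcnh2 and the two-pore Kcnk6 rose slightly, with means of 0.08 and 0.13. Without replicate 2, 2 channel genes rose and 6 fell, without replicate 3, 3 rose and 7 fell, and without replicate 1, 4 rose and 8 fell. Each such fit also loses a degree of freedom, and the share of all genes it called was not tabulated.

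The 19 genes not called were Kcna1, Kcna2, Kcna3, Kcna4, Kcna5, Kcnc2, Kcnc4, Kcnh1, Kcnh3, Kcnj2, Kcnj3, Kcnj5, Kcnj6, Kcnj8, Kcnj11, Kcnk1, Kcnk5, Kcnq5 and Kcnv1. Their means ran from -0.24 for Kcnq5 to 0.36 for Kcnj5, whose arrays read -0.0020, 0.53 and 0.57. Kcnj8 read 0.47, -0.31 and -0.29, with replicate 1 apart from the other arrays. Kcnv1 read 0.07, -0.16 and 0.02 and had no called change (mean -0.02 ± 0.12, SD, n = 3; 95% interval -0.19 to 0.14; limma adjusted p = 0.732).

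**Figure D3:**
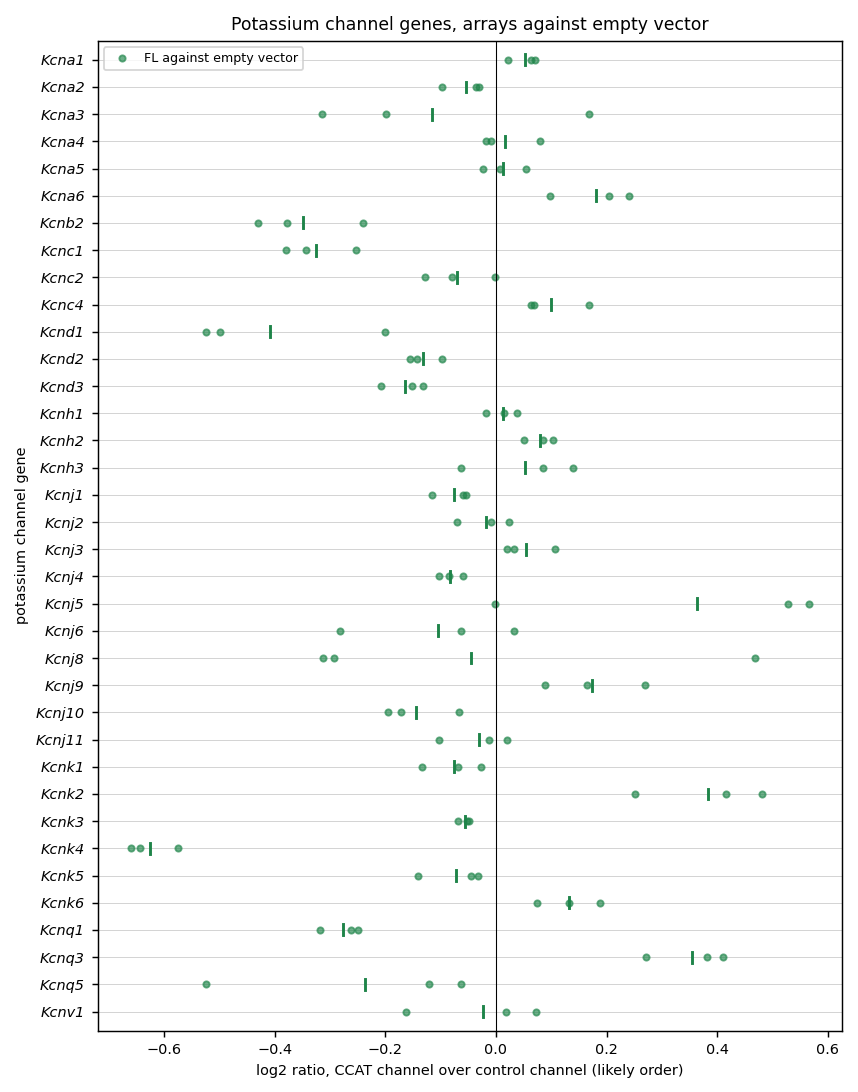
Each point is the log2 ratio of 1 array, CCAT FL against empty vector, for 1 of the 36 channel genes, and each vertical tick is the mean of 3 arrays. Kcnk4 is at the far left with arrays from -0.66 to -0.57, Kcnk2 and Kcnq3 are to the right of 0 on all arrays, and Kcnj8 has replicate 1 at 0.47 apart from the other arrays.

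Set side by side, the mean log2 ratio of Kcnk4 with full-length CCAT was -0.65 against untransfected cells and -0.63 against empty vector, each from 1 feature. With truncated CCAT against untransfected cells it was -0.60. Every group had the same dye order, so a dye effect of this gene cannot be told apart from an effect of CCAT. The platforms were normalised separately, so no test spans them. Of the 15 channel genes lower against untransfected cells, 6 (Kcnb2, Kcnd1, Kcnd2, Kcnj1, Kcnk4 and Kcnq1) were also lower against empty vector. They were 40.0% of those 15 and 60.0% of the 10 genes lower against empty vector among the 33 on both platforms. Over all genes on both platforms the corresponding shares were 51.9% and 56.6%. None of the 3 channel genes that rose against untransfected cells rose against empty vector, where all genes gave 53.9%. Kcnh2 and Kcnj9 were called lower against untransfected cells and higher against empty vector, and Kcnj4 the reverse. These were 2 of the 15 lower genes and 1 of the 3 higher genes. Over all genes such opposite calls were 942 of 5725 lower genes and 723 of 5680 higher genes. Kcnv1 stood at -1.63 and -0.02 in these comparisons.

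Several channel genes had more than 1 feature against empty vector, and these often differed, which bears on the averages above. Of 15 such genes 9 had features of opposite sign or a feature at 0, and the median gap between the lowest and highest feature was 0.28. The same share over all 8266 genes with several features on these arrays was not tabulated, so the count is not particular to the channels. Kcnv1 had a feature at -0.37, -0.48 and -0.04 and another, of the same transcript accession, at 0.51, 0.15 and 0.07. Its mean near 0 therefore combines -0.29 and 0.25, neither of which passed the test on its own over all features (limma adjusted p = 0.0855 and 0.129). Kcnd2 had a feature at -0.44, -0.40 and -0.43 and another at 0.24, 0.12 and 0.12. Both were called alone, in opposite directions, with means of -0.43 and 0.16.

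Kcnc1 had features with means of -0.68, -0.27 and -0.02, the widest gap at 0.66, and of these only the lowest was called alone (limma adjusted p = 0.00426). Kcnj4 had features with means of -0.38, 0.03 and 0.10, and again only the lowest was called alone. In Kcnj8 replicate 1 read 1.29 on a feature that read -0.28 and -0.34 on the other arrays, while its other feature read -0.36, -0.35 and -0.25 and was called alone (limma adjusted p = 0.0048). For Kcnj9 the features had means of 0.31 and 0.04, and only the former was called alone. Further genes not called on their average against empty vector had 1 feature called alone and no call for their other features. These features had means of -0.28 for Kcnj6, -0.17 for Kcnc2, 0.19 for Kcnj3, -0.18 for Kcnk5, -0.12 for Kcnq5 and 0.08 for Kcnh3. On the arrays against untransfected cells only Kcna6, Kcnj4 and Kcnj9 had more than 1 feature. With FL the Kcna6 features had means of -0.38 and 0.36, both called alone, and the gene's mean of -0.01 hides that. The Kcnj9 features had FL means of -0.16 and -0.01, and only the former was called alone. Kcnv1 and the named genes Kcnk4, Kcnd1, Kcnd2, Kcnh2 and Kcnj8 rested on 1 feature each there.

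**Figure D4:**
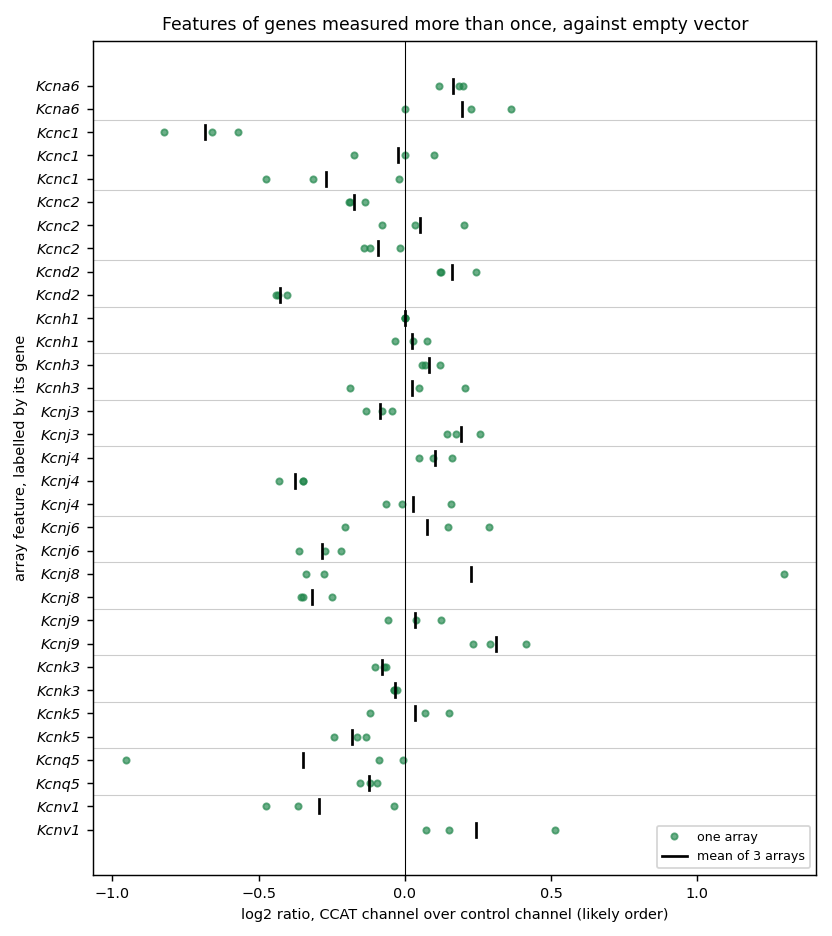
Each row is 1 feature of a channel gene measured more than once against empty vector, with points for the 3 arrays, a black tick for their mean and grey lines between genes, on a log2 ratio axis. The features of Kcnd2 lie on opposite sides of 0 (means -0.43 and 0.16), as do those of Kcnv1 (-0.29 and 0.25), and a Kcnj8 feature has an array at 1.29.

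Other potassium channel genes changed in both directions. Of 18 further pore genes measured against untransfected cells 3 rose and 6 fell with FL and 7 rose and 6 fell with DTA; of 24 against empty vector 4 rose and 8 fell. The shares called were 50%, 72.2% and 50%, beside the 69.8%, 71.8% and 63.4% of all genes. The silent subunits Kcng4 and Kcns3 fell with FL (-0.61 and -0.84) and with DTA (-0.45 and -0.75). Kcnj12, a strong inward rectifier, rose with DTA by 0.59. Kcnh5, of the same family as Kcnh2, was -0.21 with FL and 0.20 with DTA, a called difference of -0.41 (limma adjusted p = 0.000942), and differences were also called for Kcnj12 (-0.24) and Kcng4 (-0.16). Of the 18 genes 3 were called lower with FL and 1 higher, a called share of 22.2% beside 34.2% of all genes; the higher gene, named after its value was seen, was the silent subunit Kcns1 (0.17). Against empty vector the falls with the smallest p were those of the silent subunit Kcng2 (-0.82), the two-pore Kcnk12 (-0.35) and the sodium-activated Kcnt1 (-0.46).

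Among 18 auxiliary and partner genes 2 rose and 10 fell with FL, 6 rose and 9 fell with DTA, and 2 rose and 9 fell against empty vector. The shares called were 66.7%, 83.3% and 61.1%, beside 69.8%, 71.8% and 63.4% of all genes. With FL the smallest p belonged to Kcne1, the partner of Kcnq1 (-0.36), Lgi1, a secreted protein linked to Shaker-type channels (-0.24), and Amigo1, a partner of Kcnb family channels (-0.39). With DTA they belonged to Lgi1 (-0.56) and to Kcnip1 and Kcnip3, which bind Kcnd subunits (-0.41 and -0.33). The FL minus DTA difference was called for 6 of the 18, 2 higher and 4 lower with FL, a share of 33.3% beside 34.2% of all genes. The smallest p belonged to Lgi1 (0.32), Kcnip1 (0.26) and Abcc9, the sulfonylurea receptor that pairs with Kcnj8 (-0.89; limma adjusted p = 0.00153). Abcc9 was -0.56 with FL and 0.33 with DTA. The other lower genes, named after their values were seen, were Kcnip2 (-0.35), Amigo1 (-0.26) and Dpp6, a partner of Kcnd subunits (-0.23). Against empty vector Kcnab2, a cytoplasmic beta subunit of Shaker-type channels, fell by 0.44 on the log2 scale, and Kcne1 (-0.18) and Kcne2 (-0.30) fell too.

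Markers of other kinds of cell and of transfection were read beside these values. Over all genes 34.7% were higher and 35.1% lower with FL, and 35.7% higher and 36.1% lower with DTA. Against empty vector 30.6% were higher and 32.8% lower. Interferon-stimulated genes rose for 18 of 19 with FL, for 16 of 19 with DTA (median 1.275) and for 13 of 20 against empty vector, where 1 fell. Of 20 neuronal markers 9 rose and 7 fell with FL and 9 rose and 6 fell with DTA; of 21 against empty vector 8 rose and 7 fell. Of 10 glial markers 3 fell and 1 rose with FL, 4 fell with DTA and 3 fell against empty vector. Of 12 fibroblast markers 7 fell and 3 rose with FL, 5 fell and 3 rose with DTA, and 6 fell against empty vector. Of 9 immune markers 3 fell with FL, 4 fell and 1 rose with DTA, and 2 fell and 1 rose against empty vector. The shares called with FL, with DTA and against empty vector were 80%, 75% and 71.4% for neuronal markers and 40%, 40% and 30% for glial markers. They were 83.3%, 66.7% and 50% for fibroblast markers and 33.3%, 55.6% and 33.3% for immune markers. All genes gave 69.8%, 71.8% and 63.4%. The part of the marker changes in the channel values was not tested.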

How the data were processed

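RNA of sorted Neuro2A cells was hybridised to 9 two-colour Agilent mouse arrays of 2 designs, 6 against untransfected cells and 3 against empty vector. The deposited values are log10 ratios processed with Rosetta Luminator, per the series' design text; background and saturation flags were not used here, and the number of arrays limits the precision. The base is inferred from a floor at exactly -2, and array medians of -0.0046 to -0.0011 on the log10 scale show centring near 0. Scale, centring method and ratio order are not stated in the sources used here; the order was taken as CCAT over control. Values were converted to log2 without further scaling.

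Features were named from the platform annotation when it gave 1 symbol: 18218 of 22393 on the 6 arrays (16 had several, 4159 none) and 32042 of 43790 on the 3 arrays (47 had several, 11701 none). Features of a gene were averaged. The FL and DTA arrays were fitted together (4 residual degrees of freedom) and the 3 empty-vector arrays alone (2), with lmFit and eBayes of limma 3.58.1 in R 4.3.3 and Benjamini-Hochberg adjustment over all named genes. The code of the fit was tested on simulated data with independent normal noise and a small set of changed genes. Most genes were called in the real data, so that test does not bear on how many calls are true. Summaries used Python 3.11.15, pandas 2.3.3 and matplotlib 3.10.9.

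Every array value is given for up to 10 genes per comparison, those with the largest mean among genes called at 0.05 with all arrays in 1 direction (for FL minus DTA, groups not overlapping), and up to 3 genes of each further channel list by smallest p. The printed promoters are a subset chosen after values were seen. The members and lists were chosen with earlier results of these data known. Alternatives were median centring, quantile normalization, median over features, single features, ratios of 0 as missing, a filter at a log2 of 0.2, robust eBayes, a 1.5-fold null, a replicate block, separate fits and leaving out each array.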

Additional observations from a re-analysis of the deposited data

Results flagged for a closer look

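Of 33 channel genes 3 (9.09%, against 34.2% of all genes) had log2 ratios that differed between the FL and DTA groups, by limma's test of the difference itself. The FL minus DTA difference in log2 ratio was -0.355 for Kcnj10, -0.32 for Kcna4 and -0.123 for Kcnj8. Kcna4 was below 0 on all 3 FL arrays and above 0 on all 3 DTA arrays. Kcnj10 was above 0 on all 3 DTA arrays and on 1 of the 3 FL arrays, and Kcnj8 was below 0 on all 6. The Kcnj8 call was lost in 4 of the 6 fits that left out 1 array and with the replicate number as a block (adjusted p from 0.0185 to 0.0812 over its alternatives other than the 1.5-fold null).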

How the results depend on the processing

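Of 409 recomputed values of the named channel genes under all settings but the 1.5-fold null, 384 kept both direction and side of the threshold, 25 lost the call and 0 reversed. Named genes had all arrays in 1 direction or groups that did not overlap, so leaving out an array could not reverse them. Other settings, such as robust eBayes, change the test and not the mean, so the absence of reversals there was also fixed in advance. Against a null of 1.5-fold, limma called 0 channel genes higher and 0 lower for FL, 0 higher and 1 lower (Kcnv1) for DTA, 0 lower for FL minus DTA, and 0 higher and 0 lower against empty vector. With single features tested, 5 of the 36 channel features were higher for FL, a count of features and not of genes. With barely varying genes left out, 6 of the 15 channel genes still tested were lower against empty vector, beside 11 of 36. Leaving out 1 array gave 3 to 5 higher and 14 to 16 lower for FL, 6 to 9 higher and 8 to 15 lower for DTA, 0 to 3 higher and 2 to 5 lower for FL minus DTA, and 2 to 4 higher and 6 to 8 lower against empty vector. The causes were not tested, and each left-out array also removes a degree of freedom. Shares over all genes were not tabulated for the alternatives, so these counts cannot be set against a background. Deviations of same-numbered FL and DTA arrays from their group means correlated at -0.043, 0.0909 and -0.00255. Correlations this weak, from 3 arrays per group, do not settle whether the numbers pair them. With the replicate number as a block, 3 channel genes were higher and 13 lower for FL, 6 higher and 13 lower for DTA, and 1 higher and 3 lower for FL minus DTA. Without DTA replicate 3, whose label conflicts, 6 were higher and 11 lower for DTA, and 0 higher and 2 lower for FL minus DTA. Without dye swaps, a dye effect remains in each ratio.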
